A study of Mus musculus with 4 samples.

Results

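Lpl and Igf1 high microglia at 14 dpi (days post injury) were gated cells of a mouse spinal cord library taken 14 days after contusion, and they were chosen by measured values. A barcode passed the gate with at least 600 genes, at least 5000 UMIs (unique molecular identifiers, 1 per captured RNA molecule), at most 10% mitochondrial UMIs and at least 1 UMI of 4 or more of 9 microglia genes (Tmem119, P2ry12, P2ry13, Sall1, Siglech, Gpr34, Olfml3, Sparc and Slc2a5). A gated cell counted as high when Lpl and Igf1 together reached 500 CPM (UMIs per 1000000 UMIs of the cell, or of all cells of a group where groups are described) and 8 interferon-induced genes (Ifit1, Ifit2, Ifit3, Rsad2, Cxcl10, Isg15, Iigp1 and Usp18) together stayed below 3000 CPM. These were 2074 of 4993 gated microglia at 14 dpi (41.5%; 95% interval by the Clopper-Pearson method, 40.2 to 42.9%), out of 31660 barcodes in the series of 4 libraries. They were set beside the 2809 gated 14 dpi microglia below 500 CPM, called low microglia here, and beside 1661 gated microglia of the sham library, both held to the same interferon limit; the sham microglia include the 49 cells that passed the Lpl and Igf1 threshold. The other 110 gated 14 dpi cells were past the interferon limit, and 29 of them also reached 500 CPM.

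Both libraries came from 3-month-old C57BL/6 mice, and since both held cells with Y-linked transcripts and cells with Xist, each joined mice of both sexes. The 14 dpi group received a moderate contusion at the thoracic segment T10 by Allen's method, and the sham group received the laminectomy alone. CD45+ cells were sorted from the segment around the lesion, and actinomycin D, a transcription inhibitor that limits gene induction during dissociation, was present throughout in both, for sham per the labels and for 14 dpi per the study's methods. A 3 dpi library and a further sham library made without actinomycin D completed the series, and each condition had 1 library. No difference therefore has a replicate check, and injury, day and library cannot be told apart. Intervals below are exact 95% intervals and cover counting error only.

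Microglia are the resident macrophages of the central nervous system. Lpl encodes lipoprotein lipase, which hydrolyses triglycerides of lipoproteins, and Igf1 encodes insulin-like growth factor 1, a secreted trophic factor for neurons and oligodendrocyte lineage cells. Both belong to a programme seen in microglia around amyloid plaques, in demyelinated tissue and along developing white matter tracts, where microglia take up myelin and apoptotic debris.

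In the high microglia Lpl stood at 1404 summed CPM, against 92.2 in the low microglia and 77.1 in the sham microglia. Igf1 stood at 331, 76.4 and 12.7 CPM in the same order. These differences follow from the choice of cells and are description only. Lpl and Igf1 together ran from 500 to 11008 CPM in the high cells, with a median of 1367 and quartiles of 858 and 2386, and the median of the low cells was 113. The threshold cut a continuous range: 173 cells lay between 500 and 600 CPM and 213 between 400 and 500, so the high cells are described here as a range of levels; whether they form a separate type was not tested. UMIs of both genes were found in 1831 high cells (88.3%), of Lpl alone in 211 and of Igf1 alone in 32. Lpl passed 500 CPM by itself in 1656 cells (79.8%), Igf1 in 515 (24.8%), each of the pair in 365, and 268 cells passed on the sum only.

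**Figure D1:**
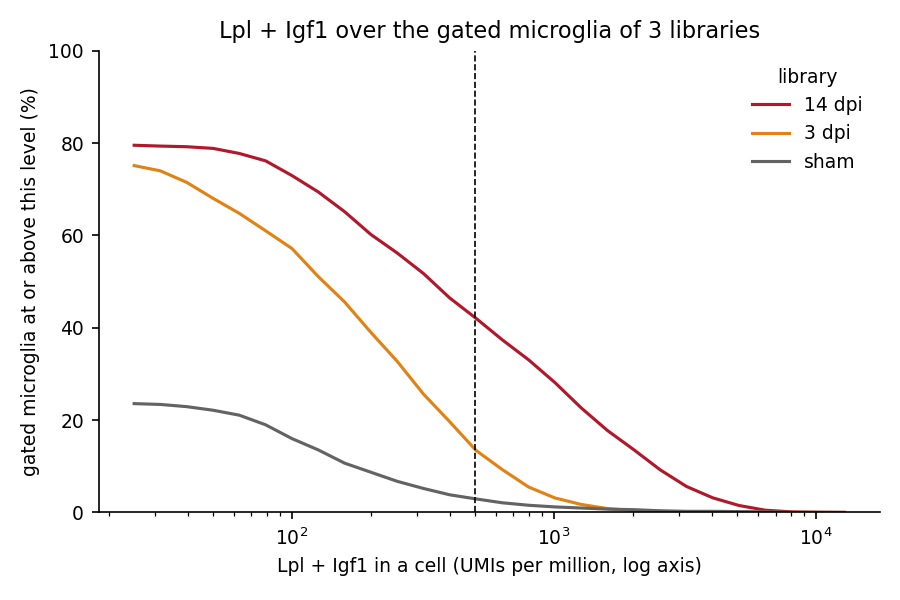
Share of gated microglia (y axis, percent) whose Lpl and Igf1 UMIs together reached the level on the x axis (CPM of the cell, log axis) in the 14 dpi, 3 dpi and sham libraries; the dashed line marks the threshold of 500. At that line the 14 dpi curve lies near the 41.5% of high cells, well above the 3 dpi curve and the sham curve, and no curve shows a gap there.

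The share of high cells was larger among deeper cells. It was 18.9% of the 1510 gated 14 dpi cells with 5000 to 10000 UMIs, 47.0% of the 2376 with 10000 to 20000 and 60.8% of the 1107 with at least 20000. With every cell thinned at random to 5000 UMIs, 20.3%, 47.2% and 60.6% of these classes reached the threshold, so the step remained at equal sampling. High cells had a median of 16400 UMIs and 3522 genes, low cells 10925 and 2885, and sham cells 10107 and 3257. Lymphocytes of the 14 dpi library (598 cells with at least 3 T cell or 3 B cell genes and no Itgam, median 6706 UMIs) carried Lpl at 35.0, Igf1 at 16.5, Spp1 at 141 and Apoe at 4753 CPM. These levels are read here as background from free RNA and from any doublets with microglia, which were not removed from this class. Lpl and Igf1 together had a median of 0 CPM over these lymphocytes and a maximum of 4552. After thinning, 94.9% of high cells and 6.69% of these lymphocytes had an Lpl UMI, and 69.8% and 4.35% had an Igf1 UMI. The sham and 14 dpi libraries shared 17 barcodes, 3 of them gated.

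Over all genes with at least 20 UMIs in a pair of groups, few were higher in the high microglia and more were lower. Of 13057 genes, 215 (1.65%) were at least 2-fold higher and 1063 (8.14%) at least 2-fold lower in high than in low microglia, with a median log2 ratio of -0.16. Of 13162 genes, 662 (5.03%) were at least 2-fold higher and 3501 (26.6%) at least 2-fold lower than in sham microglia, with a median of -0.61. Scaling moved this balance. With edgeR TMM factors, which shift the log2 ratios by 0.18 and 0.63, the counts were 306 higher and 759 lower against low microglia, and 1456 higher and 1365 lower against sham. Each list below is therefore read beside these 2 medians.

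Genes of other cell types moved with the comparison. The 10 neutrophil genes summed to 6318 CPM in high, 16933 in low and 4191 in sham microglia, with S100a9 as the most abundant in the high cells (2728). The 12 T and NK cell genes summed to 133, 330 and 25.04 CPM, the 9 monocyte genes to 276, 810 and 392, and the 10 border macrophage genes to 277, 276 and 424. None of these genes was at 0 in the high cells. Over single cells the medians were far closer for 2 of these lists, at 889, 985 and 381 CPM for the neutrophil genes and at 0 in all 3 groups for the T and NK cell genes. For the border macrophage genes they were further apart than the sums of high and low cells, at 94.2, 0 and 0. The 8 B cell genes summed to 696 CPM in high against 374 in low and 392 in sham microglia, but 1 high cell held 90.2% of the Igkc UMIs. The 12 genes of infiltrating macrophages, which include Prdx1 and Fn1, summed to 1451, 959 and 437. Their medians over single cells were 1141, 531 and 239. Prdx1 stood at 543 and Fn1 at 489 CPM in the high cells. Of the 12 genes 1 was at least 2-fold higher and 3 at least 2-fold lower than in low microglia (median log2 0.20), beside 1.65% and 8.14% over all genes. Genes of tissue cells were scarce, with 3.14 CPM for 8 fibroblast genes (Igf2 at 0), 2.19 for 6 neuron genes (Syt1 at 0), 5.32 for 5 erythrocyte genes (Alas2 at 0) and 30.2 for 7 astrocyte genes. The 9 oligodendrocyte genes summed to 764, 797 and 1057, most of it Trf, a gene that microglia also express. The 10 dendritic cell genes, which include the gate gene Siglech, summed to 250, 492 and 1593, and the 6 endothelial genes to 73.1, 22.3 and 76.6, of which Flt1 made 62.8, 9.17 and 18.4.

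Cells past a limit for neutrophil, B, T and NK, monocyte or border macrophage genes made up 221 of the high cells (10.7%), 609 of the low cells (21.7%) and 93 of the sham cells (5.60%). Without them 288 of 12437 genes were at least 2-fold higher and 500 at least 2-fold lower in high than in low microglia. These limits were set after seeing the data. The limits used the genes of these lists, so their levels without the cells follow from the choice. Values without these cells are given below for each of the lists of other functions whose median turned, for some further lists and for several genes.

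The gate itself required microglia genes, so that the high cells carry them follows from the choice. They had a median of 6 of the 9 gate genes, against 8 in low and 9 in sham microglia. Tmem119 stood at 153, 366 and 1161 CPM in high, low and sham microglia, and P2ry12, a purine receptor that steers resting processes, at 173, 439 and 2001. Of 26 further microglia identity genes, 3 were at least 2-fold lower and none at least 2-fold higher than in low microglia (median log2 -0.26). Over all genes 8.14% were lower and the median was -0.16, so with all cells counted the list was close to the background. Against sham 16 of 26 were at least 2-fold lower (median -1.28), beside 26.6% over all genes. The 3 lower than in low microglia were Crybb1 (28.2, 87.0 and 273 CPM), Adgrg1 (28.2, 85.3 and 265) and the scarce Upk1b (0.206, 1.15 and 25.5). Without the cells of other types the median of the 26 over low was -0.42, with 3 at least 2-fold lower. Over all genes 500 of 12437 were then at least 2-fold lower, with a median of -0.11. C1qa, a subunit of complement C1q, stood at 9832, 9816 and 8868 CPM, and without the cells of other types at 10202 in high and 11352 in low cells. Within the high cells C1qa was lower the more Lpl and Igf1 a cell carried, from 10419 CPM below 1000 CPM of the pair to 7565 at 4000 or more. Cx3cr1, the fractalkine receptor, stood at 1733, 2048 and 4649. In 598 lymphocytes Tmem119 was at 11.2 CPM.

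The remaining marker genes of these cells were Mmp12 and Apoc1. Mmp12 encodes macrophage elastase, a secreted metalloproteinase that cleaves elastin and other matrix proteins. It stood at 44.7 CPM in the high cells, 2.85 in the low cells and 0.542 in sham microglia, a log2 ratio of 3.96 (interval 3.69 to 4.26) over low and 6.30 (5.52 to 7.37) over sham. It was a gene of a minority: 233 high cells (11.2%) had an Mmp12 UMI, 6.32% after thinning, against 0.534% of low and 0.120% of sham cells and 0 of 598 lymphocytes of 14 dpi, where a limit of 3 cells allows up to 0.502% of cells with a UMI. A single cell held 10.2% of its UMIs in the high group and 52.3% in the low group. Apoc1, an apolipoprotein of triglyceride-rich particles, stood at 689, 363 and 3.99 CPM. It was thus at 1.90-fold the low level and at 171-fold the sham level, and after thinning 54.7% of high, 34.6% of low and 0.542% of sham cells had a UMI, against 8.86% of the 14 dpi lymphocytes. Apoc1 separated injured from sham microglia more than high from low cells. Mmp12 set the high cells apart from both other groups, and it was scarce in low and sham cells alike.

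Mmp12 lies on chromosome 9 (chr9:7344381-7369499, plus strand, GRCm38). The window printed here holds the 250 bases before the start of an annotated transcript, at chr9:7347124-7347373 on the plus strand of GRCm38.p6, from RefSeq; it overlaps no annotated exon and lies within the first intron of transcripts that start further upstream. It is shown because Mmp12 had the largest ratio over low microglia among the genes named by rule. Capitals mark the AP-1 motif TGANTCA, searched on both strands, whose first base is at -44 from the transcript start.
Mmp12: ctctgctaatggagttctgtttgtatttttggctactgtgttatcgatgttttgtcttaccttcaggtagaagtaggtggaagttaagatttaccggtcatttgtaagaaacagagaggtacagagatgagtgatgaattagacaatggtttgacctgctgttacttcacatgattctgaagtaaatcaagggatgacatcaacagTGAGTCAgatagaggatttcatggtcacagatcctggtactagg
This motif was present in 6.75% of 32851 RefSeq upstream windows of the same length. The E-box CACGTG (6.02% of windows) and the Ets core GAGGAA (23.3%), also searched on both strands, had no match in this window. The other RefSeq window of Mmp12, before a start further upstream, held the Ets core. Binding was not measured.

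Genes of lipid uptake, transport and storage leaned higher in the high cells. Of 29 measured genes, 7 were at least 2-fold higher and none at least 2-fold lower than in low microglia (median log2 0.34), beside 1.65% higher over all genes. Against sham 14 were at least 2-fold higher and 1 lower (median 0.98), beside 5.03% higher over all genes. Ch25h, which makes the oxysterol 25-hydroxycholesterol, had the largest ratio of the list over low microglia, at 212, 18.9 and 1.33 CPM in high, low and sham microglia (log2 3.49 and 7.29). The fatty acid binding proteins Fabp5 (823, 380 and 16.9) and Fabp3 (83.1, 30.3 and 1.82) and the lipid droplet coat gene Plin2 (175, 86.7 and 39.0) showed the same order. The scavenger receptors differed between themselves. Msr1 stood at 77.2, 23.9 and 12.6 CPM, Olr1 at 11.6, 2.56 and 1.08, and Cd36 at 14.0, 5.15 and 12.2, so that Cd36 in the high cells was near its sham level with all cells counted. Without the cells of other types Cd36 stood at 14.8 in high, 4.45 in low and 3.14 in sham cells. Apoe, the main apolipoprotein of the brain, stood at 85948 CPM in the high cells, 70101 in the low cells and 3436 in sham. The cholesterol efflux genes Abca1 (351, 309 and 102) and Abcg1 (123, 93.1 and 29.0) were higher in both 14 dpi groups than in sham, with small differences between high and low. Acid lipase, Lipa, which releases cholesterol and fatty acids in lysosomes, stood at 200.1, 116 and 97.4.

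Cholesterol synthesis genes differed less in size. None of 20 was 2-fold different between high and low microglia, but 14 of the 20 were higher in the high cells by some amount (median log2 0.12), beside 29.8% of all genes. Without the cells of other types the median was 0.28. Against sham the median was -0.56, close to that of all genes, and it was 0.07 with TMM factors.

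The list of disease-associated microglia, the programme described around amyloid plaques, was among the most shifted. Of 27 genes, 10 were at least 2-fold higher and none at least 2-fold lower than in low microglia (median log2 0.69), beside 1.65% higher and 8.14% lower over all genes. Against sham 22 were at least 2-fold higher (median 1.69), beside 5.03% over all genes. Spp1, which encodes osteopontin, a secreted integrin ligand, stood at 6153, 1232 and 32.4 CPM (log2 2.32 over low and 7.57 over sham), and 91.3% of high, 60.2% of low and 2.11% of sham cells had a UMI after thinning, against 38.0% of the 14 dpi lymphocytes. Ank, a pyrophosphate transporter, stood at 176, 47.7 and 30.5 CPM. Csf1, the growth factor of microglia, stood at 121, 48.4 and 25.2, and the integrin Itgax at 111, 52.1 and 10.4. Gpnmb, a lysosomal glycoprotein of phagocytes, stood at 289 and 117 CPM in the 14 dpi groups and had 1 UMI in sham (log2 11.93 over sham, interval 10.04 to 17.82). Cst7, a cystatin and a leading gene of this programme, was at 689, 359 and 23.4, a log2 ratio of 0.94 over low.

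Not all genes of the programme set the high cells apart. Cathepsin D, Ctsd, was at 15441, 10101 and 6172 CPM (log2 0.61 over low), the receptor kinase Axl at 227, 167 and 38.7 (0.45), and the adaptor Tyrobp at 5634, 4208 and 2801 (0.42). The 21 genes of axon-tract microglia of development, a list that shares Spp1, Gpnmb, Fabp5, Csf1 and others with the one above, had 7 at least 2-fold higher and none lower than in low microglia (median 0.74), beside 1.65% higher and 8.14% lower over all genes. Against sham 18 were at least 2-fold higher (median 1.77), beside 5.03%. Among the genes not shared, the lactate exporter Slc16a3 stood at 72.2, 34.6 and 47.1 and the heme oxygenase Hmox1 at 105, 60.0 and 39.6. The study's own injury-associated microglia genes were chosen on these samples, so their counts are not independent evidence. Only genes named in its text were used, and its core list and second subset list are longer. Of the named core genes 1 of 9 was at least 2-fold higher than in low microglia. Of the first subset it was 0 of 6, and of the second 2 of 10, Fn1 and Rab7b. Against sham 4 of 9, 0 of 6 and 4 of 10 were at least 2-fold higher, beside 5.03% over all genes. In the first subset 1 of 6 was at least 2-fold lower than in sham.

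**Figure D2:**
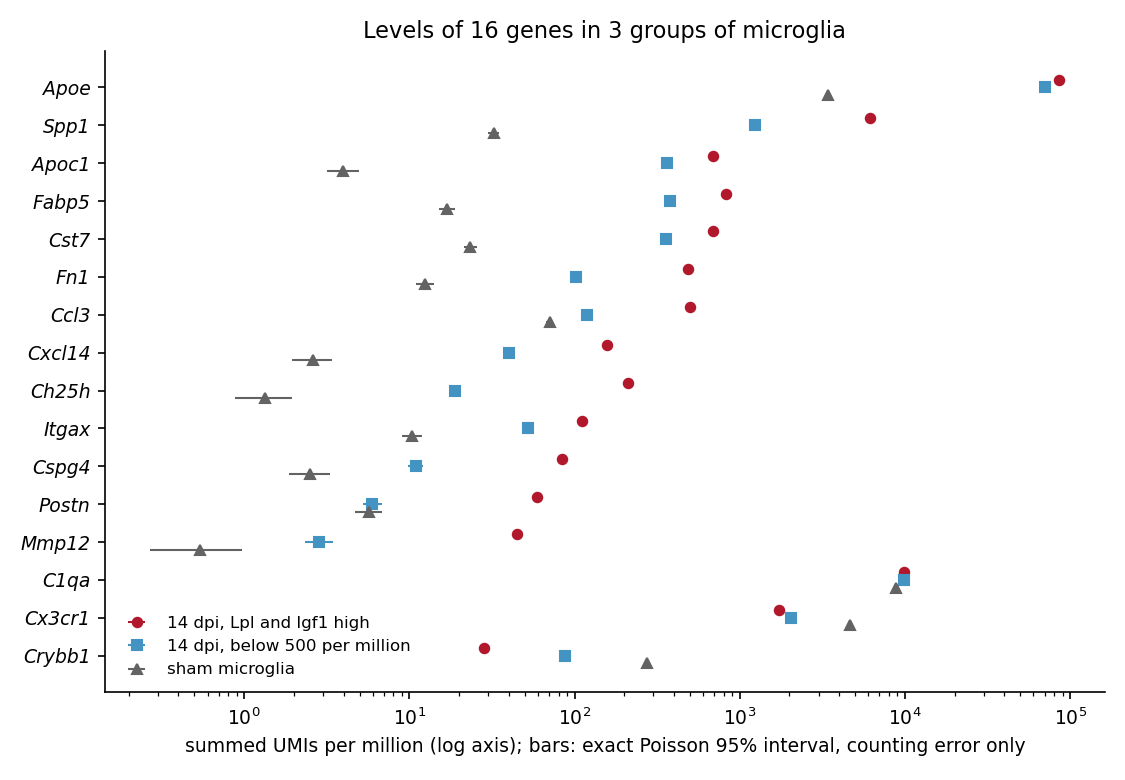
Summed CPM (x axis, log axis) of 16 genes in high, low and sham microglia; bars are exact Poisson 95% intervals and are mostly narrower than the symbols. The high cells lie to the right of the low cells from Apoe to Mmp12, the high and low symbols of C1qa nearly coincide, and Crybb1 has the reverse order.

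Igf1 was accompanied by other growth factor genes, most of them scarce. Of 21 measured growth factor and receptor genes, 6 were at least 2-fold higher and none at least 2-fold lower in high than in low microglia (median log2 0.48), beside 1.65% higher and 8.14% lower over all genes. Against sham 6 were higher and 3 lower (median 0.47), beside 5.03% and 26.6%. Hbegf, an EGF receptor ligand, stood at 6.07, 1.17 and 2.91 CPM, Fgf2 at 15.1, 6.37 and 5.37, Fgf1 at 2.65, 0.880 and 1.92, and Gdf15, a stress-induced TGF-beta family member, at 4.65, 1.73 and 1.73. A single cell held 11.02% of the Hbegf UMIs of the high group, and in male cells Hbegf and Gdf15 were lower than in sham, with log2 ratios of -0.19 and -0.65. Igf2r, the receptor that sorts lysosomal enzymes and binds IGF2, stood at 24.4, 11.8 and 1.73. Igf1r, the receptor of Igf1, was at 26.1, 24.1 and 35.8. The binding protein gene Igfbp4 had the opposite order, at 13.2, 26.3 and 40.4.

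Among 25 genes of the matrix and its proteases, 7 were at least 2-fold higher and 3 at least 2-fold lower than in low microglia (median log2 0.11), beside 1.65% higher and 8.14% lower over all genes. The 3 lower ones were Mmp8, Mmp9 and the scarce Timp1. Mmp8, a collagenase of neutrophils, stood at 22.9, 52.7 and 19.8 CPM, and Mmp9, a gelatinase of neutrophils, at 20.6 and 41.7 in high and low cells. Without the cells of other types their log2 ratios were 0.14 and 0.03, so the lower level was not seen without those cells. Fn1, Plau, Plaur, Adam8, Adamts1 and Spp1 were at least 2-fold higher than in low microglia without them too. Fn1, fibronectin, stood at 489, 102 and 12.4 CPM (log2 2.27 and 5.30). The urokinase gene Plau (70.4, 13.2 and 28.5) and its receptor Plaur (75.6, 26.2 and 15.8) were both higher in the high cells. Adam8 stood at 39.4, 14.6 and 2.66 and Adamts1 at 15.7, 5.68 and 12.03. The collagenase Mmp13 stood at 3.37, 0.107 and 0.148, but without the cells of other types at 0.364 and 0.156 in high and low cells, with 16 UMIs in all, fewer than the minimum of 20. Of 14 semaphorin, plexin and neuropilin genes, which guide axons and vessels, Plxna2 (2.26, 0.667 and 0.937) was at least 2-fold higher and Sema4a (6.02, 13.5 and 8.63) at least 2-fold lower, with a median of 0.01. Leaving out the cells of other types gave a median of -0.14, and the log2 ratio of Sema4a was -0.54.

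Several chemokine genes were higher in the high cells. Of 26 cytokine and chemokine genes 6 were at least 2-fold higher and 2 lower than in low microglia (median log2 0.29), beside 1.65% higher and 8.14% lower over all genes. Against sham 14 were higher and 7 lower (median 1.06), beside 5.03% and 26.6%, so that the lower shares were near those of all genes. The macrophage inflammatory proteins Ccl3 and Ccl4 stood at 498, 119 and 70.7 and at 713, 184 and 90.9 CPM. Cxcl14 stood at 157, 40.3 and 2.61, Ccl6 at 501, 154 and 230.4, and the interleukin 1 antagonist Il1rn at 14.0, 6.45 and 1.18. Ccl5, a product of T and NK cells as well as microglia, was lower at 156, 318 and 25.9, and without the cells of other types its log2 ratio over low was -0.59. Il1b was at 59.9, 45.4 and 6.41, Tnf at 8.43, 6.48 and 7.64, and Il6 at 0.411, 1.17 and 14.5. With the cells of other types left out, Il1b stood at 50.4 in high and 27.3 in low cells, a log2 ratio of 0.89.

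Summed over cells, MHC class II genes were lower in the high cells than in the low cells. Of 12 genes of this list 4 were at least 2-fold lower and none higher (median log2 -0.83), beside 8.14% lower over all genes. The 4 were H2-Aa (148, 337 and 262 CPM), H2-Ab1 (167, 358 and 295), H2-Eb1 (106, 266 and 233) and their regulator Ciita (4.04, 10.6 and 3.89). Cd74, the invariant chain, stood at 520.3, 942 and 705. Over single cells the medians of the list were closer, at 763, 812 and 858 CPM in high, low and sham cells. The 95th percentiles were 3305, 7584 and 2096, so a minority of low cells carried much of the difference. Without the cells of other types the median over low was -0.69, with 4 of 12 genes at least 2-fold lower. Over all genes 500 of 12437 were then at least 2-fold lower, with a median of -0.11. The comparison with sham turned: the median over sham was -0.65 with all cells and 0.64 without the cells of other types. H2-Eb1 without those cells stood at 81.4, 197 and 48.9 CPM. The 14 MHC class I genes had a median of -0.24 over low and -0.06 over sham, and the 24 interferon-induced genes outside the gate one of -0.37 and -0.28, with none 2-fold different from low microglia in either list. Against sham these class I and interferon medians had the opposite sign with TMM factors, at 0.57 and 0.35. Of 25 complement and phagocytosis genes 1, properdin (Cfp), was at least 2-fold lower than in low microglia and none was higher (median -0.08, and 0.10 with TMM factors); without the cells of other types the log2 ratio of Cfp was -0.27.

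Lysosomal and metabolic genes differed by small steps. None of 27 lysosome genes was 2-fold different from low microglia (median log2 0.29), and 5 of 28 were at least 2-fold higher and 2 lower than in sham (median 0.33), beside 5.03% higher and 26.6% lower over all genes. Glycolysis and hypoxia genes had a median of 0.56 over low and 0.70 over sham. The 2 at least 2-fold higher of 23 were Slc16a3 and the glucose transporter Slc2a1 (42.8, 21.1 and 35.7 CPM). The enzyme genes Gapdh (1539, 916 and 861) and Aldoa (556, 331 and 247) were higher in the high cells by log2 0.75 each, and Hk2 had the opposite order at 145, 178 and 345. The 25 nuclear genes of oxidative phosphorylation had a median of 0.12 over low and 0.49 over sham, none 2-fold different. Among 20 immediate early genes, Egr2 (14.3, 4.16 and 3.45) and Atf3 (103, 33.5 and 17.9) were at least 2-fold higher than in low microglia and Fos (40.9, 92.2 and 22.9) and Nr4a1 (3.78, 8.11 and 3.06) at least 2-fold lower, with a list median of -0.33. The shares over all genes were 1.65% higher and 8.14% lower, so that the share of the list that was lower was near the background. The median was 0.09 without the cells of other types, and then no gene of the list was 2-fold lower, beside 500 of 12437 over all genes.

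The cell cycle list had no stable direction. Over low microglia its 25 genes had a median log2 ratio of -0.53, with Mki67 at 44.1, 74.0 and 62.5 and Top2a at 46.7, 67.5 and 78.9 CPM in high, low and sham cells. Without the cells of other types the median was 0.67, with 3 of 25 genes at least 2-fold higher, beside 288 of 12437 over all genes. Mki67 then stood at 32.7 and 19.2 CPM in high and low cells. Against sham the median with all cells was -0.74, with 6 of 25 genes at least 2-fold lower, beside 26.6% over all genes. At least 3 of 10 mitosis genes had a UMI in 5.35% of high, 4.98% of low and 2.65% of sham cells. These shares were counted without thinning, and the groups differed in depth, with medians of 16400, 10925 and 10107 UMIs.

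**Figure D3:**
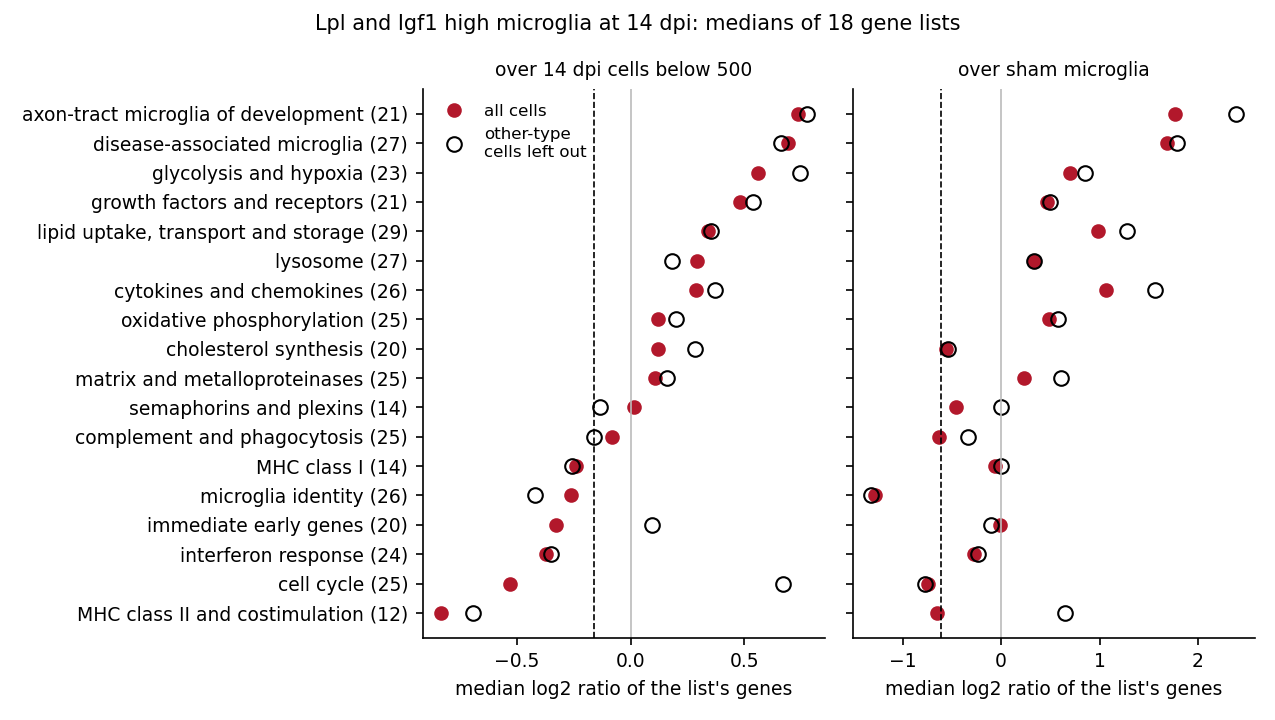
Median log2 ratio (x axis) of the genes of 18 lists in high microglia over low (left) and over sham microglia (right), with the number of genes measured in the left comparison; filled points use all cells, open points leave out cells with genes of other types, and the dashed line is the median of all genes. Among the filled points the axon-tract and disease-associated lists lie highest in both panels. When those cells are left out, the cell cycle, immediate early gene and semaphorin lists on the left and the MHC class II list on the right change side of 0.

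Beyond the lists, the genes with the largest ratios of high over low microglia were named by rule, as the 15 largest and 15 smallest with at least 200 UMIs. After Mmp12 the largest was Igfbp5, a scarce IGF binding protein at 5.45, 0.400 and 1.87 CPM in high, low and sham cells, with 13.2% of its UMIs in 1 high cell. The matricellular gene Postn stood at 59.5, 5.97 and 5.67 CPM (log2 3.31), and the proteoglycan gene Cspg4 at 84.1, 10.9 and 2.51 (2.95). Flt1, a VEGF receptor, stood at 62.8, 9.17 and 18.4, and Nes, the intermediate filament nestin, at 63.7, 10.6 and 21.05. In these 4 genes no single high cell held more than 1.99% of the UMIs. Trpc4, Baiap2l2, Il4i1, Dkk2, Efr3b and Htr2b completed the largest with Ch25h, Plau and Hbegf. Il4i1, an amino acid oxidase, stood at 65.3, 11.2 and 10.5, the Wnt regulator Dkk2 at 15.6, 2.67 and 0.0493, and the serotonin receptor Htr2b at 13.7, 2.67 and 0.0986.

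Most of the smallest ratios belonged to genes of other blood cells. Prss34 and Mcpt8, proteases of basophils, stood at 2.37, 30.9 and 37.1 and at 1.62, 13.3 and 28.6 CPM, and 1 low cell held 49.3% and 51.1% of their low UMIs. Elane and Mpo, of granulocyte precursors, stood at 29.4 and 120.4 and at 13.4 and 56.6 in high and low cells, and 1 low cell held 19.8% and 14.6%. Without the cells of other types the log2 ratios of Elane and Mpo over low were -0.18 and -0.56, but those of Prss34 (-4.45), Mcpt8 (-4.00), Klre1 (-2.30), Vpreb1 (-2.19) and Myb (-2.05) remained below -1. Vpreb1 and Igll1 of B cell precursors, Klrc2 and Klre1 of NK cells, Vcan, Ear2, Orm1, Ctsg, AC140186.1, Ncam1 and Myb made up the rest. Over sham the largest were Gpnmb, Apoc4 (237, 121 and 0.444 in high, low and sham), Cd5l, Dkk2, Spp1, Apoc1, Ch25h, Cxcl9, Htr2b and Mmp12. Cxcl9, an interferon-induced chemokine, stood at 17.5 and 15.1 CPM in high and low cells, so its ratio over sham was shared by both. The smallest over sham included Rbp4, Retnla, 1500015O10Rik, Igfbp2, Clec3b, Dcn, Car1, Upk1b and Serping1, each at most 0.283 CPM in the high cells and between 10.5 and 36.9 in sham. Dcn, Igfbp2 and Serping1 are expressed by fibroblasts.

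Within the high cells the levels were graded. Cells were set in 4 classes of Lpl and Igf1 together: 676 from 500 to 1000 CPM, 716 from 1000 to 2000, 522 from 2000 to 4000 and 160 at 4000 or more. Mmp12 stood at 12.2, 36.2, 66.2 and 192 CPM over these classes, Ch25h at 88.8, 198, 328 and 514, and Spp1 at 4320, 6395, 7771 and 8327. Ccl6 stood at 271, 449, 718 and 1234, Fn1 at 297, 486, 674 and 831, and Postn at 19.7, 47.4, 99.0 and 196. Each of these was higher in every successive class. Over all 12023 genes with at least 20 UMIs in the high cells, 16.3% were higher and 16.6% lower in every successive class. Of the listed genes, 16 of 27 disease-associated, 14 of 21 axon-tract and 13 of 24 glycolysis and hypoxia genes were higher in every successive class, and 17 of 26 identity genes, 16 of 24 interferon genes and 11 of 14 MHC class I genes were lower in every one. Over all 404 listed genes, 97 were higher and 108 lower in every successive class. With cells of 3 or more cell cycle genes removed, these counts were 54 and 28. That limit took 88.7% of the high cells. Selplg, the P-selectin ligand, stood at 517, 442, 380.4 and 241, and Crybb1 at 40.6, 26.3, 19.1 and 7.36.

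Apoe, Apoc1, Apoc4, Gpnmb and Cst7 did not follow Lpl upward. Apoe stood at 89164, 86424, 83594 and 74607 CPM over the 4 classes. Apoc1 stood at 660.3, 737, 714 and 443 CPM, Gpnmb at 277, 345, 259 and 129, Apoc4 at 254, 241, 235 and 130, and Cst7 at 671, 727, 688 and 565. Each was lowest in the class with the most Lpl and Igf1. Cx3cr1 stood at 1750, 1685, 1751 and 1865, near one level throughout. Median depth was 15798, 16960, 17094 and 14453 UMIs over the classes, and the share of cells past a limit for other types was 16.1%, 10.6%, 5.75% and 3.75%.

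**Figure D4:**
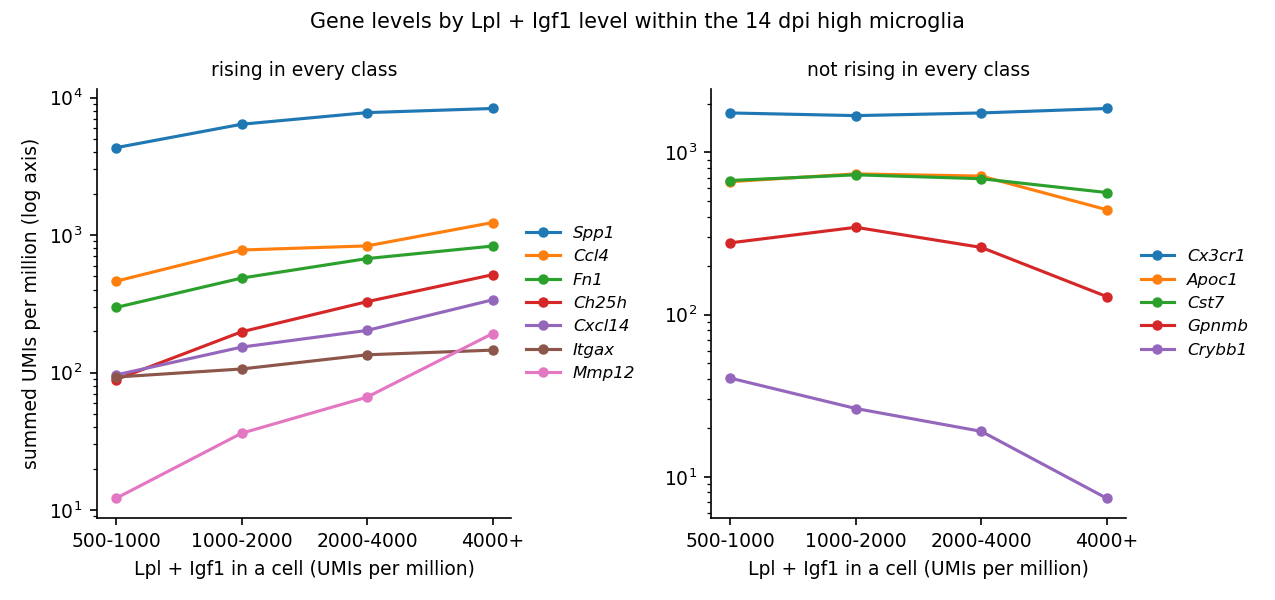
Summed CPM (y axis, log axis) of 12 genes in high microglia grouped by the summed CPM of Lpl and Igf1 (x axis). The left genes are higher in each successive class, and on the right Cx3cr1 stays near one level while Apoc1, Cst7, Gpnmb and Crybb1 are lowest in the last class.

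High cells with more Lpl and high cells with more Igf1 differed in other genes. In 1291 cells Lpl passed 500 CPM and Igf1 did not, and in 150 cells the reverse held. Gpnmb stood at 170 CPM in the Lpl cells and 1026 in the Igf1 cells, Fabp5 at 623 and 1760, Apoc4 at 177 and 533, and Apoc1 at 567 and 929. Ms4a7, a gene of border and infiltrating macrophages, stood at 98.6 and 469. Postn had the reverse order at 68.9 and 7.17, as had Mmp12 at 51.3 and 18.1, Ch25h at 226 and 90.7 and Fn1 at 536 and 239. Several microglia genes were higher in the Lpl cells, with Siglech at 202 and 84.3, P2ry12 at 190.4 and 114, Sall1 at 62.1 and 31.6, Selplg at 486 and 279 and Cx3cr1 at 1830.1 and 1279.9, whereas Tmem119 (155 and 161) was close. Spp1 (5533 and 6720) and Cst7 (666 and 722) differed little. Neutrophil genes were higher in the Lpl cells, with Camp at 535 against 60.7 and Ltf at 141 against 16.4, and their part in the difference was not tested.

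The high state was present in cells of both sexes at a similar share. Cells with a UMI of Ddx3y, Eif2s3y, Kdm5d or Uty and none of Xist were called male and the reverse female. High cells were 708 of 1662 male cells (42.6%, 40.2 to 45.0%) and 773 of 1886 female cells (41.0%, 38.8 to 43.2%). Spp1 stood at 6136 and 1102 CPM in male high and low cells and at 7097 and 1376 in female ones. Of 31 named genes (Apoc1 and the 30 largest and smallest over low microglia), 30 had the same sign in both sexes. The exception was Prss34, with a log2 ratio of 0.55 in male and -5.79 in female cells. The 30 genes were chosen on cells of both sexes together, so the agreement in sign largely follows from the choice. Which mouse a cell came from is not recorded, so cells of a sex are not replicates.

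The same rule found few cells in sham. It found 49 of 1676 gated sham cells (2.92%, 2.17 to 3.85%), 44 of 3034 in the sham library made without actinomycin D (1.45%) and 211 of 1564 at 3 dpi (13.5%). No Lpl or Igf1 UMI was seen in 76.2% of gated sham cells, 23.5% at 3 dpi and 20.4% at 14 dpi. The 49 sham cells carried Spp1 at 618, Apoc1 at 5.22, Mmp12 at 10.4 and Itgax at 81.0 CPM, and no Gpnmb UMI (0 of 49 cells, where a limit of 3 cells allows up to 6.12% of cells with a UMI). The 211 cells at 3 dpi carried Spp1 at 31373, Fabp5 at 1408 and Fn1 at 1080 CPM, all above the high cells at 14 dpi. They carried Apoe at 13608, Apoc1 at 76.0, Cst7 at 63.7, Itgax at 7.88 and Mmp12 at 9.80, all below them. Cells past the same threshold were thus unlike in these genes between 3 and 14 dpi, and day and library cannot be told apart.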

How the data were processed

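The deposited files are 4 matrices of UMI counts per gene and cell barcode, made by the authors with Cell Ranger (3.1.0 for the sham library with actinomycin D and for 14 dpi, 3.0.1 for the other libraries, per the file headers; mm10 per the submitters' processing notes). They were not normalized. The 14 dpi matrix holds 11631 barcodes and 129935880 UMIs, the sham matrix 2439 and 27447471. Counts were summed over the cells of a group and divided by the group's total. Log2 ratios had 0.5 UMIs added to both sums. Genes with at least 20 UMIs over the pair were compared, and a 2-fold ratio was counted. With 1 library per condition no test was made. Shares were also read after thinning each cell to 5000 UMIs. Doublets were not removed beyond the gate; removal with Scrublet scores and Itgam with lymphocyte genes was an alternative. Genes named beyond the lists were the 15 largest and 15 smallest ratios over low microglia and the 10 of each over sham, with at least 200 UMIs, leaving out sex-linked, mitochondrial, haemoglobin, immunoglobulin, ribosomal protein and gate genes, Lpl and Igf1. A few values are not reported here. The members and lists were chosen with earlier results of these data known. Alternatives changed the threshold, depth, gate, interferon limit, UMI minimum, added UMIs, weighting of cells, thinning, scaling, doublets, cycling cells and sex. Python 3.11.15, scanpy 1.11.5, R 4.3.3 and edgeR 4.0.16 (TMM factors only) were used, and the code was tested on simulated data.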

Additional observations from a re-analysis of the deposited data

How the results depend on the processing

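No paired analysis was possible because each condition has 1 library, and leaving out a library leaves no group. The share of high cells among gated 14 dpi microglia was 55.5% with a threshold of 250 CPM and 27.999% with 1000, 40.0% with at least 2500 UMIs per cell and 51.4% with at least 10000, and 36.8% with at least 6 of the 9 microglia genes. It was 28.5% with cells of 3 or more cell cycle genes removed, a limit that took 88.7% of the high cells, and 44.9% without cells of other types. With no minimum of UMIs 1257 genes were at least 2-fold higher and 3563 lower than in low microglia, and 1214 and 6575 against sham. With at least 200 UMIs these counts were 115 and 391, and 381 and 1920. TMM factors gave 1456 and 1365 against sham. Genes at least 2-fold lower than in low microglia numbered 579 with cells of 3 or more cell cycle genes removed and 500 without cells of other types. With the former, 54 listed genes were higher and 28 lower in every successive Lpl and Igf1 class, against 97 and 108 of 404. Some directions turned. The cholesterol median over sham was 0.0723 with TMM factors. The cell cycle median over low was 0.11 in female cells and 0.67 without cells of other types, and over sham 1.07 in male cells and 0.20 without cells of 3 or more of 10 mitosis genes. In male cells Hbegf and Gdf15 over sham were -0.19 and -0.65. Without cells of other types Mmp8 and Mmp9 over low were 0.14 and 0.0314, and the MHC class II median and H2-Eb1 over sham were 0.64 and 0.73. The cause was not tested. Of 2311 gene values of at least 2-fold over all settings 2306 kept their sign, as did 303 of 309 list medians of at least 0.5, leaving aside the lists of other cell types. Part of the gene count was fixed in advance. A changed UMI minimum leaves a gene's ratio as it is, and the TMM shifts of 0.18 and 0.63 are too small to turn a 2-fold value. The gene values counted do not include Prss34, whose ratio over low microglia turned in male cells. Leaving out cells of other types, and cells of mitosis genes, was chosen after seeing the data.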
